A study of Homo sapiens with 4 samples.

Results

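Zinc finger genes of chromosome 19 were followed in cytoplasmic RNA of SUM159, an established cell line from a human triple-negative breast cancer. The members are the genes on chromosome 19 whose listed symbol is ZNF, a number and at most 1 further letter. There were 214 such genes with 638 introns, of 15902 genes with 142206 introns in all. The cells had received H3B-8800, a small molecule that inhibits the spliceosome, or its solvent DMSO, each for 12 hours, with 2 libraries of polyA-selected RNA per treatment, described as biological duplicates. The line, the medium and the fractionation were the same in both groups. For 1 transcript per gene, reads inside each intron (intronic reads) were given, and reads that span it (called spliced reads here) were computed. A read across several introns is counted once for each of them, so the sums do not count molecules.

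Most proteins of this family carry a row of C2H2 zinc fingers, each a short fold held by a zinc ion, and use them to bind DNA. Many also begin with a KRAB domain, which recruits the corepressor TRIM28 and, through it, the histone methyltransferase SETDB1. The genes arose by repeated local duplication and lie in clusters on chromosome 19, where many bind and repress transposable elements. The KRAB domain is typically encoded by short exons and the whole finger array by the last exon. A search of translated GENCODE transcripts found a KRAB letter pattern in 178 of 213 members with a reading frame and fingers in 212. In 198 of those 212 every finger lay in the last exon. The number of fingers had a median of 12 and reached 36 in ZNF208. The pattern is a letter match and not a domain annotation. It was narrowed once after it matched ZNF574, a gene not known for the domain, and it misses ZNF473, which is known to have one, so members without the pattern can hold the domain.

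The likeness of these genes bears on their counts, because a read may have to be assigned to 1 of several similar copies. It is shown by the junctions at which the exon with the KRAB pattern is joined to the exon before it, for those of the 10 largest rises described below that have such a coding junction. Each sequence runs 5′ to 3′ along the spliced GENCODE transcript, with the last 15 bases of the upstream exon in lower case and the first 15 bases of the KRAB exon in capitals; the position is that of the intron on hg38.
ZNF350 intron 2 (chr19:51969132-51974345, minus strand): atgatccaggcccagGAATCCATAACACTG
ZNF614 intron 2 (chr19:52018495-52025730, minus strand): atgatcaagacccagGAATCACTGACCCTG
ZNF224 intron 3 (chr19:44097889-44100800, plus strand): atgaccacgttcaagGAGGCAATGACCTTC
ZNF223 intron 2 (chr19:44055192-44060454, plus strand): atgaccatgtccaagGAGGCAGTGACCTTC
ZNF284 intron 2 (chr19:44076405-44081014, plus strand): atgaccatgttcaagGAGGCAGTGACCTTC
ZNF836 intron 3 (chr19:52160592-52168057, minus strand): atggctcttacacagGGACCTTTGACATTC
ZNF808 intron 3 (chr19:52543348-52547511, plus strand): atggctcttcctcagGGACGCTTGACTTTC
ZNF766 intron 1 (chr19:52269632-52282110, plus strand): gcgcaactgcggcgcGGACACTTGACATTC
ZNF776 intron 1 (chr19:57747092-57750784, plus strand): aggcccccggctcagGGCACTGTGACCTTT
ZNF223 and ZNF284 differed at 1 of these 30 bases, ZNF224 and ZNF284 at 2, and ZNF224 and ZNF223 at 3. ZNF836 and ZNF808 differed at 5 and ZNF350 and ZNF614 at 6, whereas ZNF224 and ZNF766 differed at 20. Over 50 bases around the junction, 26 member introns in 21 members had a sequence that also occurs in a transcript of a gene elsewhere. Among the 10 largest rises this touched only ZNF284, at 1 of its 4 introns.

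The 2 H3B-8800 libraries held 58000000 and 62000000 reads, and either DMSO library 64000000. All 5 mesenchymal markers looked for had spliced reads in every library, with changes of -1.19 in AXL, -0.26 in VIM, 0.45 in FN1, 0.54 in SPARC and 1.07 in CD44; VIM had 58892 and 61117 after H3B-8800 and 87321 and 85920 after DMSO. Of the genes looked for as low, ESR1 and PGR had no spliced read, CDH1 had at most 1, EPCAM 3 to 15 and GATA3 27 to 49 per library, but ERBB2 had 382 and 387 after H3B-8800 and 564 and 529 after DMSO. The liver gene ALB had none and the endothelial gene PECAM1 27 to 57. The part of these differences in the results was not tested. Of the intronic counts above 0, 70.9% to 72.3% per library were even, so reads are not independent. All p-values measure the spread between 2 libraries per group.

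Spliced reads of the zinc finger genes were more abundant after H3B-8800. Summed over all 214 members, with no filter, they numbered 5672 and 6094 after H3B-8800 and 4377 and 4413 after DMSO. Scaled by TMM, which equalises the bulk of genes, this was 493.1 ± 3.6 CPM (counts per 1000000 of the scaled library) after H3B-8800 and 305.6 ± 1.8 CPM after DMSO (SD over 2 libraries each), which is 1.61 times as much. The 2 groups did not overlap and lay apart by far more than their spread. A two-sided exact permutation test of 2 against 2 libraries cannot give a p below 0.333, which is the p found here. All other genes together had a ratio of 1.02. Scaled to the library totals instead, the members' ratio was 1.43 and that of all other genes 0.905. In bulk RNA, a change in the make-up of the cell population and a change of RNA per cell cannot be told apart.

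Gene by gene, 84 members had a mean of at least 1 CPM and were tested. Spliced reads rose in 40 of them and fell in 3 (quasi-likelihood test of edgeR, adjusted p under 0.05 by Benjamini-Hochberg over all genes). Of all 9468 genes tested, 32.8% rose and 32.7% fell. The median change of the tested members was 0.78 on the log2 scale, against 0.01 for all genes tested, and 69 of the 84 had a positive change. The 40 rises ranged from 0.63 to 2.99, and 30 of them were at least 2-fold. In all 40 the groups did not overlap. Without regard to the test, 57 of the 84 had both H3B-8800 values above both DMSO values, where 41.6% of all tested genes did, and 8 had both below, where 40.9% did. Without 1 library the rises numbered 29 to 33, and the falls numbered 0 without DMSO replicate 1, 1 without H3B-8800 replicate 2 or DMSO replicate 2 and 2 without H3B-8800 replicate 1. Scaling to the library totals moved the median of all genes to -0.16; the members' median was then 0.60, with 36 rises and 6 falls. Of all 9468 genes tested, 2230 rose and 3927 fell on that scale. The filter passes a weak gene more easily if 1 group is high, so these counts are read beside the unfiltered sum. The 130 members below it included 22 without any spliced read. Their spliced reads numbered 551 and 538 after H3B-8800 and 488 and 519 after DMSO.

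**Figure D1:**
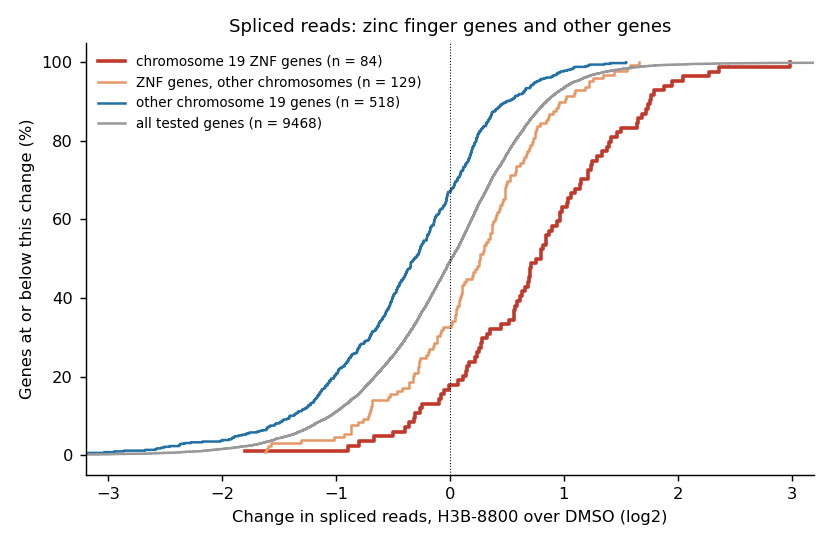
Cumulative share of genes (vertical axis, percent) at or below a given log2 change in spliced reads, H3B-8800 over DMSO (horizontal axis), for the 84 tested zinc finger genes of chromosome 19, 129 ZNF genes of other chromosomes, 518 other genes of chromosome 19 and all 9468 tested genes. The line of the chromosome 19 zinc finger genes lies furthest right, with a median of 0.78.

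The neighbours and the relatives of these genes had other values. Among 129 tested ZNF genes of other chromosomes 39 rose and 12 fell, with a median change of 0.26, and their summed spliced reads had a ratio of 1.18. Among 518 tested chromosome 19 genes without such a name, 101 rose and 262 fell, with a median of -0.31 and a ratio of sums of 0.936. The zinc finger genes are weakly expressed and short of introns. Their tested members had a median of 2.866 CPM, against 26.18 CPM for all tested genes, and the members had a median of 3 listed introns, against 6 over all genes. A class defined after the data were seen, of other genes with at most 6 introns and at most 10.15 CPM, held 1568 tested genes, of which 302 rose and 309 fell, with a median of 0.08. The 73 members within the same limits had 32 rises and 2 falls, with a median of 0.80. No test was made of the difference between these sets.

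The largest rise was that of ZNF350, also called ZBRK1, a KRAB zinc finger repressor known to bind BRCA1. Its 4 introns (hg38, chromosome 19, 51966215 to 51986769, minus strand) had 231 and 258 spliced reads after H3B-8800 and 43 and 31 after DMSO. That is 20.48 ± 0.41 CPM after H3B-8800 and 2.572 ± 0.59 CPM after DMSO (SD over 2 libraries each), a log2 change of 2.99 (SE 0.20; edgeR, adjusted p = 3.2e-08).

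ZNF224, a KRAB repressor first described at the aldolase A promoter, had 99 and 94 spliced reads after H3B-8800 and 30 and 18 after DMSO, a change of 2.27 (SE 0.30; edgeR, adjusted p = 1.65e-05). Its neighbour ZNF223 had 86 and 79 reads after H3B-8800 and 26 and 22 after DMSO, a change of 2.05 (SE 0.29). The third gene with a like junction, ZNF284, had 56 and 64 reads after H3B-8800 and 21 and 18 after DMSO. Its change was 1.88 (SE 0.32), and 1.91 without its shared junction. Each of the 3 stood more than 2-fold above DMSO in both H3B-8800 libraries. Groups that do not overlap were a condition for naming a gene among the largest rises. ZNF224 lies at 44094489 to 44106395, ZNF223 at 44052196 to 44066063 and ZNF284 at 44072292 to 44085713, all on the plus strand.

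Further along the chromosome, ZNF614 had 81 and 70 spliced reads after H3B-8800 and 29 and 18 after DMSO, a change of 1.95 (SE 0.32). ZNF836, with 24 fingers, had 80 and 99 reads after H3B-8800 and 34 and 28 after DMSO, a change of 1.79 (SE 0.27). ZNF766 had 63 and 78 reads after H3B-8800 and 24 and 26 after DMSO, a change of 1.76 (SE 0.30). In these 3 genes as well the groups do not overlap, by the condition for naming them. The other 3 of the 10 largest rises rest on fewer reads. They lay below 1 CPM in both DMSO libraries and passed the filter on spliced reads only through H3B-8800. ZNF776 had 25 and 27 reads after H3B-8800 and 7 and 5 after DMSO, a change of 2.36 (SE 0.50). ZNF808, known in humans for a role in pancreas development, had 17 and 23 reads after H3B-8800 and 7 and 7 after DMSO, a change of 1.76 (SE 0.51; edgeR, adjusted p = 0.00808), and its DESeq2 adjusted p was 0.0539. ZNF613 had 22 and 37 reads after H3B-8800 and 10 and 11 after DMSO, a change of 1.74 (SE 0.45).

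**Figure D2:**
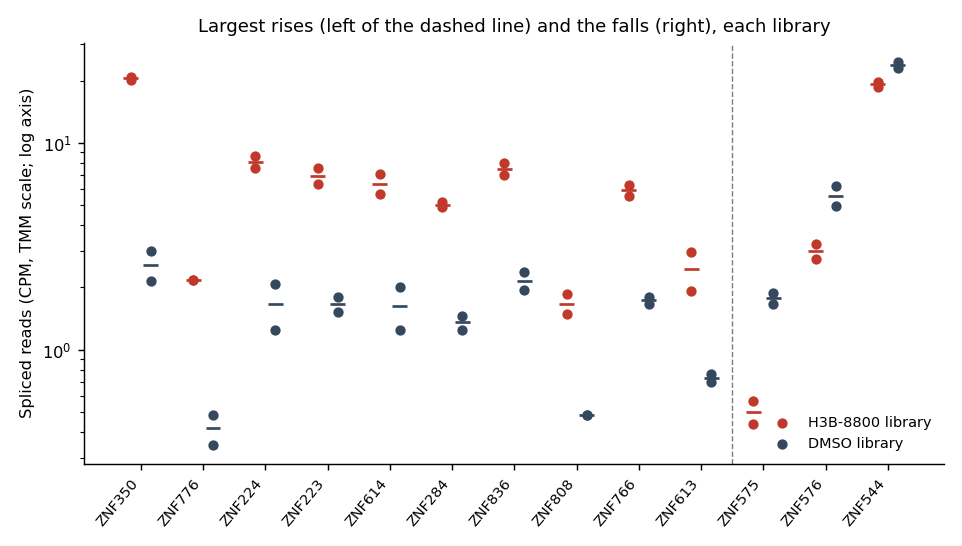
Spliced reads (CPM on the TMM scale, log axis) of the 10 members with the largest rises and the 3 that fell. Each point is a library, H3B-8800 left and DMSO right within a gene, and the bar is the group mean. ZNF350 averaged 20.48 CPM after H3B-8800 and 2.572 CPM after DMSO. In none of the 13 genes do the groups overlap, which was a condition for showing them.

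The rise was spread over the introns of these genes. The 40 genes that rose had 126 introns with at least 20 spliced reads over the 4 libraries. In 109 of them H3B-8800 lay above DMSO without overlap, in 17 the groups overlapped and in none did H3B-8800 lie below. These introns belong to genes chosen for their rise, and a read across several introns is counted at each, so a high count was to be found. No share over all introns was taken, and the count describes only how the rise was distributed along the gene. In ZNF350 most spliced reads came from intron 1, with 174 and 174 after H3B-8800 and 25 and 22 after DMSO. Intron 4, just before the finger exon, had 31 and 45 after H3B-8800 and 9 and 4 after DMSO. Leaving out intron 1 gave a change of 2.65 for ZNF350. In ZNF224 the 5 introns had 14 to 25 spliced reads per H3B-8800 library and 3 to 8 per DMSO library. Leaving out the most-read intron of every gene gave 25 rises and 0 falls among 59 members tested. Among all 8796 genes then tested, 2815 rose and 2739 fell. Members with a single intron, or with too few reads left, were then not tested.

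**Figure D3:**
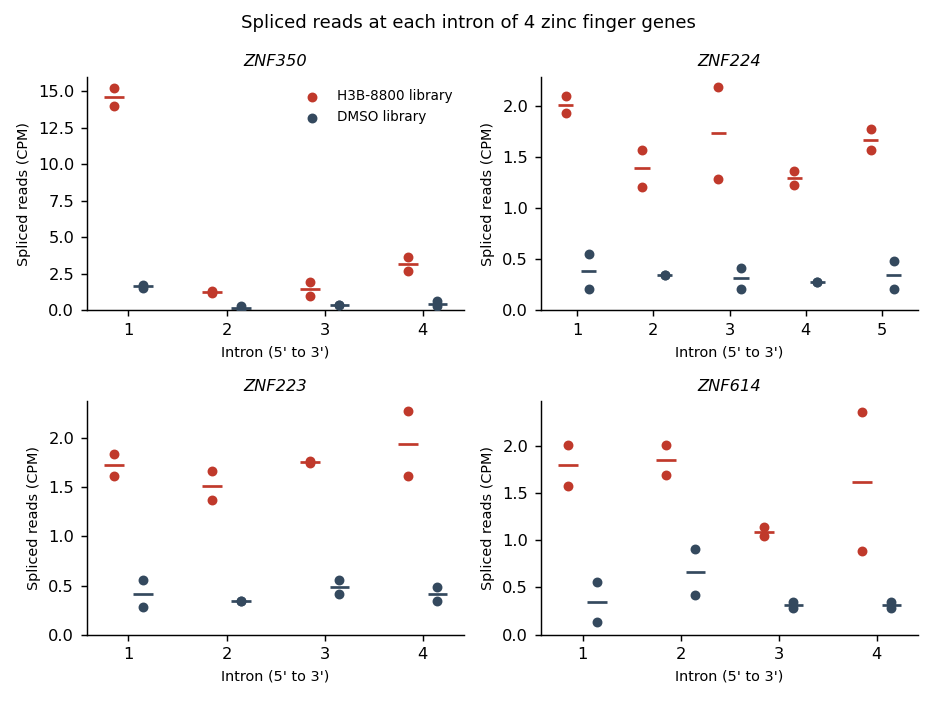
Spliced reads at each intron (CPM on the TMM scale, introns numbered 5′ to 3′) of ZNF350, ZNF224, ZNF223 and ZNF614. Points are libraries, H3B-8800 left and DMSO right at each intron, and bars are group means. At every intron shown the H3B-8800 libraries lie above the DMSO libraries. In ZNF350 intron 1 holds most of the reads.

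Only 3 tested members fell, and 0 of 59 when the most-read intron of every gene was left out. ZNF575 had 5 and 7 spliced reads after H3B-8800 and 27 and 24 after DMSO. Its change was -1.80 (SE 0.50, edgeR, adjusted p = 0.00662), and it passed the filter on spliced reads only through its DMSO libraries. With either DMSO library left out, ZNF575 was below that filter and was not tested. Its close neighbour ZNF576 had 37 and 34 reads after H3B-8800 and 89 and 71 after DMSO, a change of -0.90 (SE 0.27; edgeR, adjusted p = 0.011), and the adjusted p was 0.0785 without H3B-8800 replicate 2 and 0.119 without DMSO replicate 1. Neither gene holds the KRAB pattern. ZNF544, which does, had 226 and 232 reads after H3B-8800 and 332 and 354 after DMSO, a change of -0.31 (SE 0.11; edgeR, adjusted p = 0.0275). That call did not hold without any 1 of the 4 libraries, where the adjusted p was 0.0594 to 0.151.

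Of the 8 members with the most spliced reads per intron, 5 rose and 1 fell. ZNF146, whose protein consists almost wholly of fingers, had 273 and 360 reads at its single intron after H3B-8800 and 195 and 229 after DMSO, a change of 0.84 (SE 0.14). ZNF428 had 315 and 338 reads after H3B-8800 and 250 and 259 after DMSO, a change of 0.63 (SE 0.11), which without its most-read intron was 0.46 with an edgeR adjusted p of 0.112. ZNF468 had 174 and 170 reads after H3B-8800 and 73 and 86 after DMSO, a change of 1.38 (SE 0.18). ZNF480 and ZNF581 also rose, by 1.06 and 0.80; the call of ZNF581 was lost without H3B-8800 replicate 2 or either DMSO library (edgeR adjusted p = 0.0581 to 0.0848) and with DESeq2 (0.0512). ZNF576 fell, as given above. The other two of this group did not pass the test, with changes of -0.08 (SE 0.20) in ZNF787 and -0.31 (SE 0.17) in ZNF584. Scaled to the library totals, ZNF584 fell by 0.48 (edgeR, adjusted p = 0.0214).

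The members formed 16 blocks along chromosome 19, a new one starting where the gap between listed genes exceeded 1000000 bases. Blocks 15 and 12 were singled out after their values were seen. Block 15 (hg38, 51571476 to 53576696) runs from ZNF175 to ZNF331 and holds 35 members, among them ZNF350, ZNF614, ZNF836, ZNF808, ZNF766 and ZNF613. Of its 20 tested members 16 rose and 0 fell, with a median change of 1.24; ZNF600, at 0.94, is one of the smaller rises. Its summed spliced reads, over all 35 members, were 122.3 and 122.6 CPM after H3B-8800 and 47.34 and 47.28 CPM after DMSO, a ratio of 2.59. Block 12 (43533522 to 45076075) runs from ZNF575 to ZNF296 and holds 20 members, with 7 rises and 2 falls among 11 tested, a median of 0.96 and a ratio of sums of 1.82. It contains both the ZNF224 group, which rose, and ZNF575 and ZNF576, which fell.

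Block 16, at the end of the long arm (55476808 to 58479929), is the largest with 52 members. Of its 19 tested members 5 rose and 1 fell, with a median of 0.28. Its sums were 92.63 and 93.86 CPM after H3B-8800 and 83.56 and 83.51 CPM after DMSO, a ratio of 1.12. Block 9, from ZNF565 to ZNF573, had 4 rises among 9 tested members, a median of 0.84 and a ratio of 1.71. Block 5 holds 27 members near the centromere, of which 5 passed the filter and 2 rose. Outside blocks 12 and 15, 17 of 53 tested members rose, a share near the 32.8% of all tested genes, and 1 fell, where 32.7% of all did; their median was 0.56. Members of a block are related by sequence and are not independent, and the blocks were not tested against each other.

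**Figure D4:**
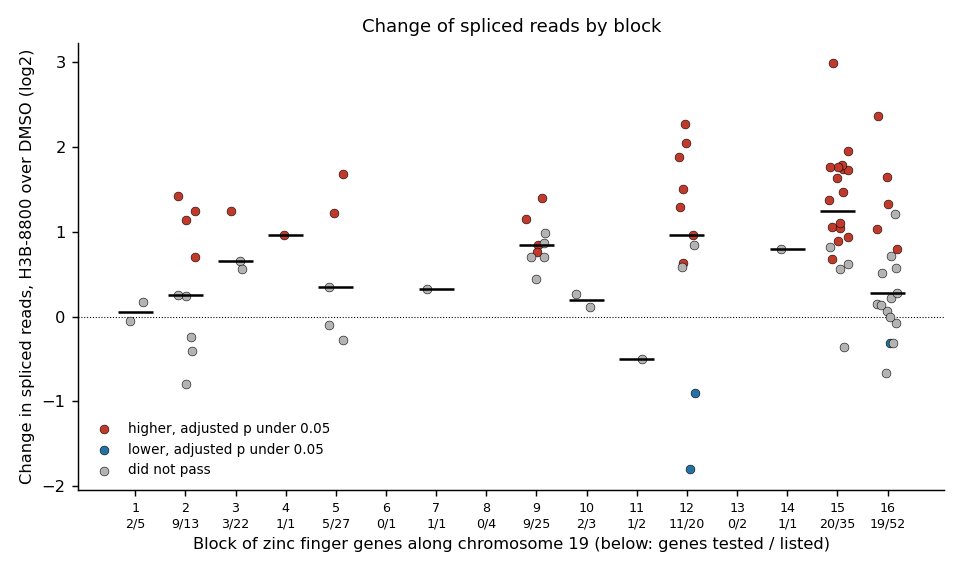
Log2 change in spliced reads, H3B-8800 over DMSO (vertical axis), of the 84 tested members by block in order along chromosome 19 (horizontal axis, with members tested and listed below each block number). Colours mark the edgeR call and bars the block medians. Block 15 has a median of 1.24 and block 16 one of 0.28.

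Members were also counted by the KRAB pattern. Of 64 tested members with the pattern 35 rose and 1 fell, with a median of 0.96. Of 20 tested members without it 5 rose (ZNF428, ZNF581, ZNF146, ZNF600 and ZNF266) and 2 fell, with a median of 0.15. The share of rises was 54.7% with the pattern and 25% without it, where 32.8% of all tested genes rose and 32.7% fell. By number of fingers, in classes set after the data were seen, members with 15 or more had 14 rises and 0 falls among 25, with a median of 0.94. Those with 10 to 14 fingers had 17 rises and 1 fall among 36, with a median of 0.71, and those with up to 9 had 9 rises and 2 falls among 23, with a median of 0.33. In this order the shares of rises were 56%, 47.2% and 39.1%, beside the same 32.8% of all tested genes. These groupings share members with one another and with the blocks, and no difference between them was tested.

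The promoters of the members were compared with those of other genes by their letters. RefSeq promoters on GRCh38.p14, from 250 bases before to 50 after the start, were matched by symbol for 186 members. They were searched on both strands for 17 motifs. The short ones were CCGGAAG, the GC box as GGGCGG, the CCAAT box, a TATA box written TATAAA, the cAMP response element TGACGTCA, an E2F-like site TTTCGCGC, and 3 further strings, of which one was CGCGAGA, another CTTTGTCC and the last TGGAACC. The other 8 had 10 to 12 letters, among them the recognition sequences of NRF1 and YY1; 1 of them contains CGCGAGA, and in each of 2 pairs the longer contains the shorter. CCGGAAG, a core recognised by ETS family factors, was singled out after the shares were seen, so its share is a description and was not tested. It occurred in 41.4% of the member promoters, 34.1% of 176 promoters of ZNF genes on other chromosomes, 14.7% of 11842 promoters of the listed genes that are not members, and 10.7% of all 27305 promoters. Among the 35 matched members whose spliced reads rose it occurred in 42.9%, close to its share in the members as a whole. CCAAT occurred in 52.7% of member promoters, 35.7% of those of other listed genes and 35.7% of all. GGGCGG occurred in 65.6% of member promoters, 62.5% of those of other listed genes and 44.6% of all. TATAAA occurred in 2.15% of member promoters, 8.27% of those of other listed genes and 12% of all. In members that rose, CCAAT occurred in 28.6% and GGGCGG in 42.9%. The remaining 13 motifs occurred in 0% to 5.91% of member promoters each.
The promoters of the 2 largest rises are shown, whether or not they hold the motif, with CCGGAAG or its reverse complement in capitals. That of ZNF350 (chr19:51986791-51987090, minus strand) holds none, and that of ZNF776 (chr19:57746565-57746864, plus strand) holds 1.
ZNF350 promoter: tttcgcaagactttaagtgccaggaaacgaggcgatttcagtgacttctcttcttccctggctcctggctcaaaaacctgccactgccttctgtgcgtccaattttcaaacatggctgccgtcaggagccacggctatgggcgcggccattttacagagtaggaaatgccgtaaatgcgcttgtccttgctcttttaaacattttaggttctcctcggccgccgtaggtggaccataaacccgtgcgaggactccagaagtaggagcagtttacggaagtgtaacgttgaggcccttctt
ZNF776 promoter: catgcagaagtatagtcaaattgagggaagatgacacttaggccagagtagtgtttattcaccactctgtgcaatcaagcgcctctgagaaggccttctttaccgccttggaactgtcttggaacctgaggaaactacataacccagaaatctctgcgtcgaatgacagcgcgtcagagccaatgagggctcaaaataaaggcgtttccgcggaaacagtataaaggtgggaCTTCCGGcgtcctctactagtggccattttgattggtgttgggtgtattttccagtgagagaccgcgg

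Intronic reads of the zinc finger genes were also more numerous after H3B-8800. Over all members they numbered 4619 and 4850 after H3B-8800 and 2667 and 2474 after DMSO. Per 1000000 reads of the library total this was 78.93 ± 1.0 after H3B-8800 and 40.16 ± 2.1 after DMSO (SD over 2 libraries each), a ratio of 1.97, against 1.83 for all other genes. Of 70 members with a mean of at least 10 intronic reads, 39 rose and 5 fell (edgeR, library totals, adjusted p under 0.05). Over all 7900 genes tested, 58.3% rose and 4.37% fell. The median change was 1.13 for the members and 1.04 for all. By single introns, 37 of 75 tested member introns rose and 7 fell, where 48.2% and 5.74% of all 12013 tested introns did. These counts depended on the libraries and the scaling. With either H3B-8800 library left out, no gene or intron in the whole table passed; at an unadjusted p under 0.05, 28 to 33 members were then higher and 3 or 4 lower per gene, and DESeq2 on all 4 libraries gave 31 rises and 1 fall. With either DMSO library left out, the falls per gene numbered 3, and without DMSO replicate 1 the falls per intron also numbered 3. With TMM scaling of the intronic reads, which moves the median of all genes to 0.02, 15 members rose and 12 fell. Among all 7900 genes tested, 1601 then rose and 1589 fell, and DESeq2 gave 3567 rises and 192 falls. Without 1 H3B-8800 library the median change was 1.01 or 1.05 for the members and 1.03 or 0.98 for all genes.

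The largest intronic rises per gene included members with almost no intronic read after DMSO. The filter on intronic reads also passes a gene more easily if 1 group is high. ZNF530, ZNF134 and ZNF473 passed it through H3B-8800. ZNF530 had 33 and 66 intronic reads after H3B-8800 and 4 and 0 after DMSO, a change of 4.63 (SE 0.69). ZNF134 had 27 and 20 after H3B-8800 and 0 and 2 after DMSO, a change of 4.49 (SE 0.88). ZNF473, also called ZFP100, which binds the U7 particle that processes histone mRNA ends, had 111 and 114 after H3B-8800 and 12 and 6 after DMSO, a change of 3.72 (SE 0.36). ZNF350 and ZNF224 rose in both kinds of read, with intronic changes of 3.33 (SE 0.54) and 3.07 (SE 0.34). Of the 40 members whose spliced reads rose, 23 had enough intronic reads for a test, and intronic reads rose in 14 of them and fell in 1, ZNF431, beside 58.3% and 4.37% of all genes tested.

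The share of intronic reads was high in these genes with either treatment. It was 44.6% ± 0.40 of intronic plus spliced reads after H3B-8800 and 36.89% ± 1.4 after DMSO (SD over 2 libraries each), a ratio of 1.21. In all other genes it was 8.189% after H3B-8800 and 4.222% after DMSO, a ratio of 1.94. An annotated exon of another transcript lay inside 48.3% of the member introns, against 32.1% of all introns, and such exons add reads that need not come from a retained intron. In the member introns without one the share was 24% ± 0.58 after H3B-8800 and 16.51% ± 0.80 after DMSO, a ratio of 1.45, where other genes had 2.53. The groups did not overlap in any of these 4 values, for each of which the exact permutation p was 0.333.

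Last and first introns had different values. Among members with at least 2 introns, last introns without an annotated exon inside had intronic shares of 38.87% and 40.36% after H3B-8800 and 23.65% and 19.82% after DMSO. First introns of the same kind had 28.03% and 26.83% after H3B-8800 and 27.39% and 22.88% after DMSO, so that these groups overlapped. In other genes the last introns had 6.839% after H3B-8800 and 1.955% after DMSO, and the first introns 5.124% after H3B-8800 and 2.954% after DMSO. The difference between first and last introns was not tested.

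The ratio of intronic to spliced reads does not depend on the scaling of the libraries. It was tested in 55 members that averaged 10 or more reads of each kind. The ratio rose in 15 and fell in 2 (edgeR, interaction of kind of read and treatment, adjusted p under 0.05). Over all 7566 genes tested, 65.4% rose and 2.35% fell. The median change was 0.76 for the members and 1.35 for all. In block 15 the ratio rose in 1 of 13 tested members, with a median of -0.31. Without H3B-8800 replicate 2 the rises in all members numbered 8. By single introns, 9 of 35 tested member introns rose and 1 fell, where 56.5% and 2.88% of all 9937 tested introns did; without H3B-8800 replicate 2 the rises numbered 4, and without DMSO replicate 1 they numbered 6. With either DMSO library left out, no member intron passed with a lower ratio in edgeR; at an unadjusted p under 0.05 there were 0 without DMSO replicate 1 and 2 without DMSO replicate 2. DESeq2 on all 4 libraries gave 0 adjusted and 1 unadjusted. ZNF350 and ZNF224, whose spliced and intronic reads both rose, did not pass the ratio test, with changes of 0.51 (SE 0.62) and 0.98 (SE 0.56).

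**Figure D5:**
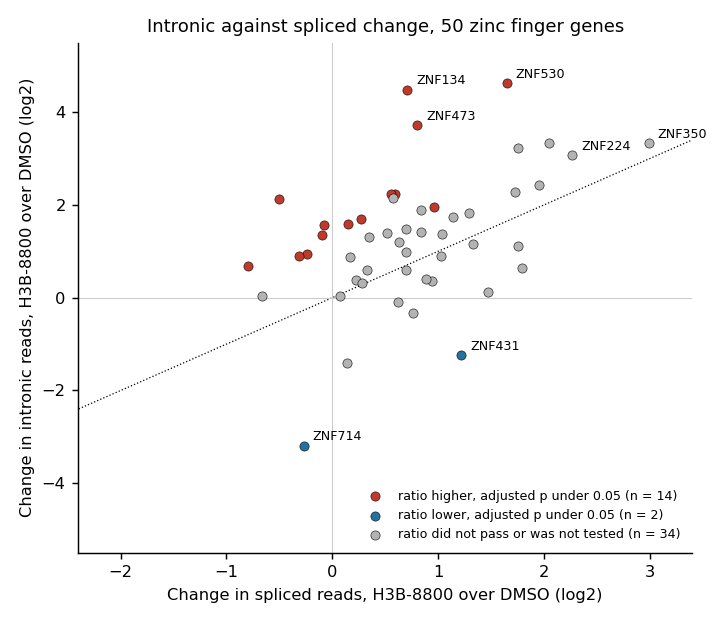
Log2 change in intronic reads (vertical axis, library totals) against log2 change in spliced reads (horizontal axis, TMM), H3B-8800 over DMSO, for the 50 members tested for both; the dotted line marks equal change. Colours give the call of the ratio test, with 14 higher and 2 lower. In 36 of the 50 the intronic change exceeds the spliced change, on axes of unlike scaling. The ratio change, which needs no scaling, was positive in 41 of 55 members tested and in 6695 of all 7566 genes tested.

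Among genes whose ratio rose, the largest changes were those of ZNF134, at 3.95 (SE 1.01; edgeR, adjusted p = 0.00262), ZNF530, at 3.23 (SE 0.93), and ZNF473, at 3.11 (SE 0.58). Their order changed without DMSO replicate 1. The filter on intronic reads was passed by ZNF134, ZNF530 and ZNF473 through H3B-8800. ZNF134 was at 7.11 without DMSO replicate 2 and 3.02 without DMSO replicate 1, and ZNF530 at 6.38 without DMSO replicate 1. ZNF473 lay between 2.76 and 3.59. ZNF526 and ZNF579 followed at 2.76 (SE 0.75) and 2.27 (SE 0.60), and without DMSO replicate 2 the adjusted p of ZNF526 was 0.0779. The intron with the smallest adjusted p was intron 2 of ZNF473 (hg38, 50041820 to 50044669), with 82 and 68 intronic reads after H3B-8800 and 8 and 4 after DMSO. Its spliced reads were 11 and 9 after H3B-8800 and 11 and 10 after DMSO, and its ratio changed by 3.70 (SE 0.72; edgeR, adjusted p = 0.00103). Intron 2 of ZNF787 (56089093 to 56103138) had 26 and 26 intronic reads after H3B-8800 and 9 and 3 after DMSO, a ratio change of 2.53 (SE 0.60). Intron 2 of ZNF473 and intron 2 of ZNF787 also passed the filter on intronic reads through H3B-8800. Intron 6 of ZNF544 (58246795 to 58260850) had 378 and 385 intronic reads after H3B-8800 and 190 and 216 after DMSO, a ratio change of 1.23 (SE 0.31). All 3 of these introns hold an annotated exon. The ratio also rose in introns of ZNF579, ZNF71 and ZNF358, by 2.27, 1.80 and 1.70, and only the ZNF358 intron holds no annotated exon. Each of these 3 calls was lost without at least 1 library.

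The smallest rises of the ratio that passed were those of ZNF333 (1.15, SE 0.41) and ZNF414 (1.37, SE 0.37). The call of ZNF333 was lost without H3B-8800 replicate 1 (edgeR adjusted p = 0.159), without DMSO replicate 2 (0.111) and with DESeq2 (0.0729).

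The ratio fell in ZNF714 (-2.74, SE 0.67) and ZNF431 (-2.27, SE 0.53), which lie next to each other in block 5. In both the loss was in intron 2. Intron 2 of ZNF714 (21084070 to 21098184) had 0 and 2 intronic reads after H3B-8800 and 38 and 38 after DMSO. Intron 2 of ZNF431 (21143644 to 21166334) had 0 and 2 after H3B-8800 and 23 and 24 after DMSO. Spliced reads over the whole gene numbered 24 and 20 after H3B-8800 and 30 and 34 after DMSO in ZNF714, and 76 and 112 after H3B-8800 and 51 and 46 after DMSO in ZNF431. Both introns contain an annotated exon on the same strand. Intron 2 of ZNF569 was the single member intron that passed the test with a lower ratio (-2.37, SE 0.90; edgeR, adjusted p = 0.039), with 7 and 1 intronic reads after H3B-8800 and 22 and 14 after DMSO; its change was -4.35 without H3B-8800 replicate 1. This intron passed the filter on intronic reads only through its DMSO libraries. Without DMSO replicate 1 it was below that filter and was not tested. The call was lost without H3B-8800 replicate 2 (-1.38, edgeR adjusted p = 0.22), without DMSO replicate 2 (-2.47, 0.0659), with DESeq2 (-2.54, 0.0751) and with no filter on low counts (-2.44, edgeR adjusted p = 0.385).

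Genes of proteins that KRAB zinc finger proteins work with were read from a list of 23. For spliced reads 21 were tested, of which 33.3% rose (7 genes) and 42.9% fell (9 genes), beside 32.8% and 32.7% of all tested genes, with a median change of 0.05. The corepressor TRIM28 had 4971 and 5654 spliced reads after H3B-8800 and 9054 and 9413 after DMSO, a change of -0.53 (SE 0.04). SETDB1, the methyltransferase of the complex, had 333 and 334 after H3B-8800 and 205 and 238 after DMSO, a change of 0.86 (SE 0.12), and its partner ATF7IP rose by 1.20 (SE 0.08). DNMT1, the maintenance DNA methyltransferase, changed by -2.01 (SE 0.05). Adjusted p-values of these 4 genes were at most 3.42e-05 (edgeR).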

How the data were processed

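Cytoplasmic polyA-selected RNA was sequenced from strand-specific libraries, per the labels' protocols. Per the submitters' processing notes, HISAT2 2.0.4 was used, with hg38 and mm10 given as builds; the counting tool and its use of strand are not given in the sources used here. Each deposited file has no header and holds 2 counts of reads and an RPKM for each intron. The authors' RPKM is the first of these counts divided by intron length and by a library total, which was recovered from it. The first count was read as intronic reads and the excess of the second as spliced reads, a reading inferred from the values. For 18 introns no second count was given. Deposited coordinates include 1 exon base on each side; with those removed, 99.9% of the introns are in GENCODE release 29, and such hg38 coordinates, 1-based, are printed.

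Counts were tested with edgeR 4.0.16 (R 4.3.3): spliced reads per gene with TMM scaling and a mean of at least 1 CPM, intronic reads with library totals and a mean of at least 10, and the intronic-to-spliced ratio as the interaction of kind of read and treatment, with a term per library and a mean of at least 10 of each. SEs were taken from the F statistic. Adjustment was by Benjamini and Hochberg over all features. The scripts were tested on simulated data. DESeq2 1.42.0, other scalings and filters, a replicate block, leaving out libraries and subsets of introns were the alternatives. One, leaving out junctions found in another gene, was chosen after seeing the data.

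The members, lists and tests were chosen with earlier results of these data known. Genes named are the 10 largest rises and falls that passed without overlap of the groups, the 8 members with the most spliced reads per intron, the introns ranked 1 to 6 by p for either direction of the ratio test, and the 5 largest and smallest ratio changes that passed; others were chosen after their values were seen. Fingers and the KRAB pattern were searched in translated GENCODE transcripts in place of the RefSeq proteins planned. Promoters are from RefSeq (GRCh38.p14).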

Additional observations from a re-analysis of the deposited data

How the results depend on the processing

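The direction of the members' median change in spliced reads was the same under every alternative run. Spliced reads per gene: leaving out 1 library gave 29 to 33 rises and 0 to 2 falls, scaling to library totals 6 falls, leaving out each gene's most-read intron 25 rises and 0 falls, and introns without an annotated exon 26 rises and 1 fall. Intronic reads per intron: leaving out 1 library gave 0 to 40 rises and 0 to 6 falls, DESeq2 3 falls, and TMM scaling 18 rises and 15 falls. Intronic reads per gene: leaving out 1 library gave 0 to 39 rises and 0 to 3 falls, DESeq2 1 fall, TMM scaling 15 rises and 12 falls, and introns without an annotated exon 6 rises and 0 falls among 14 tested. Where 0 passed, without 1 of the H3B-8800 libraries, no feature of the whole table passed; 18 to 25 member introns were then higher at an unadjusted p under 0.05. Ratio per intron: leaving out 1 library gave 4 to 9 rises and 0 to 1 falls, DESeq2 0 falls, and no filter on low counts 2 rises and 0 falls among 347 tested. Ratio per gene: leaving out 1 library gave 8 to 12 rises and 2 to 3 falls, and introns without an annotated exon 2 rises and 0 falls among 8. The difference in intronic share, 7.71 percentage points, was 6.15 as the median over 77 members and 6.74 to 8.68 without 1 library. The change of ZNF787 in spliced reads, -0.08, ranged from -0.19 to 0.02 without 1 library and was 0.06 without its most-read intron. Among all genes tested, introns without an annotated exon gave 2659 rises and 2648 falls of 8810 in spliced reads. They gave 2408 and 84 of 4014 in intronic reads, and 2534 and 45 of 3900 in the ratio. TMM scaling of intronic reads gave 1601 rises and 1589 falls of 7900 genes, and 2563 and 2327 of 12013 introns. No filter on low counts gave 4018 rises and 55 falls of 61959 in the ratio per intron. Where introns or libraries are left out, fewer reads enter. Otherwise the cause was not tested. Libraries with the same number did not deviate together (r = 0.05 over 9468 genes, 2 pairs), and a replicate block gave 40 rises and 3 falls in spliced reads and moved no count of calls by over 1.5 times. Most members had too few reads for a test: 84 of 214 passed the filter for spliced reads and 55 that for the ratio.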
